A study of Bos grunniens with 18 samples.

Results

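Of the 5 SLIT and ROBO guidance genes looked for by gene symbol (ROBO1, ROBO2, ROBO4, SLIT2 and SLIT3), 2 receptors, ROBO1 and ROBO2, were found among the 173 genes of the expression table used here. ROBO4, SLIT2 and SLIT3 were not analysed here, nor were ROBO3 and SLIT1, so receptors can be described but no ligand. The 173 genes lie mostly on chromosome 1 and are only part of the transcriptome, so every rank, share of genes and adjusted p below refers to them alone. Expression was measured by RNA-seq of poly(A) RNA in 9 input libraries of yak (Bos grunniens) ovary tissue. They comprise 3 each from anestrus in April (YO-A), estrus in August (YO-F) and pregnancy in December (YO-P). In the paper, a part of each ovarian sample was fixed and the rest frozen, so a library need not represent the entire organ. Input means RNA that did not pass through the m6A immunoprecipitation, and the 9 immunoprecipitated libraries of the same ovaries are represented here only by 1 list of m6A peaks per stage. All yaks were healthy and 6 years old, no treatment is named, and ovaries were taken after death. Each stage was sampled in 1 month, so stage and season cannot be told apart. Library 2 of estrus (YO-F2), which the study excluded after its principal component analysis, is given apart, and the stages were compared over the other 8 libraries. It did count in the mean FPKM over 9 libraries by which genes were selected for the fit and for the spread within stages. The family was chosen by gene name with earlier results in view, among them the FPKM of ROBO1 in YO-F2, so the level in that library is described and not tested.

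ROBO proteins are receptors that span the cell membrane, with immunoglobulin and fibronectin type III domains outside the cell. They bind secreted SLIT proteins, usually with heparan sulfate as a co-factor, and the signal acts on the actin skeleton of the cell. The pathway is best known for turning growing axons away from the nervous system midline, and outside the nervous system it acts on cell migration, adhesion, vessel growth and survival. In the ovary, SLIT and ROBO genes have been linked to follicle formation and to the corpus luteum, the hormone-secreting body that forms from the follicle after ovulation. The annotation in the table assigns ROBO1 to cell migration in sprouting angiogenesis and to the Roundabout signaling pathway. It assigns ROBO2 to the apoptotic process involved in luteolysis, the regression of the corpus luteum, and to the cellular response to hormone stimulus.

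Both receptor genes lie on chromosome 1 in the coordinates of the deposited table. ROBO1 (ENSBGRG00000000014) runs from 9567210 to 10778605 on the plus strand, and ROBO2 (ENSBGRG00000000017) from 11912833 to 12631150 on the minus strand. They point toward each other across a gap of 1.13 Mb in which the table lists 0 genes. With spans of 1211 kb and 718 kb they are the third and the fifth longest of the 173 genes, and each has 3 annotated transcripts. A short gene on the opposite strand, ENSBGRG00000000015, lies inside ROBO1 (10426053 to 10427687) and was listed at 0 in 8 of the 9 libraries and at an FPKM of 0.0209 in YO-P1. Whether reads were counted by strand is not given in the sources used here.

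ROBO1 was expressed in every library. Its FPKM (fragments per kilobase of exon, scaled to the mapped reads of the library) was 24.5, 9.87 and 10.6 in YO-A1 to YO-A3, 10.6 and 17.4 in YO-F1 and YO-F3, and 16.3, 9.80 and 13.9 in YO-P1 to YO-P3. The highest library, YO-A1, belonged to the same stage as one of the lowest, YO-A2, and the ranges of all 3 stages overlapped. The stage means were 15.0 ± 8.23 in anestrus (SD, n = 3), 14.0 ± 4.79 in estrus (SD over 2 libraries) and 13.3 ± 3.27 in pregnancy (SD, n = 3). These means differed by less than the SD of any stage. In mean FPKM over the 8 libraries, ROBO1 ranked 41st of the 173 genes.

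ROBO2 was expressed at a like level. Its FPKM was 14.6, 22.9 and 17.3 in YO-A1 to YO-A3, 23.4 and 16.5 in YO-F1 and YO-F3, and 14.9, 12.4 and 25.4 in YO-P1 to YO-P3. The lowest and the highest of these 8 libraries were both from pregnancy. The stage means were 18.3 ± 4.21 in anestrus (SD, n = 3), 19.9 ± 4.93 in estrus (SD over 2 libraries) and 17.5 ± 6.92 in pregnancy (SD, n = 3), again closer to each other than 1 SD. ROBO2 ranked 32nd of the 173 genes in mean FPKM.

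**Figure D1:**
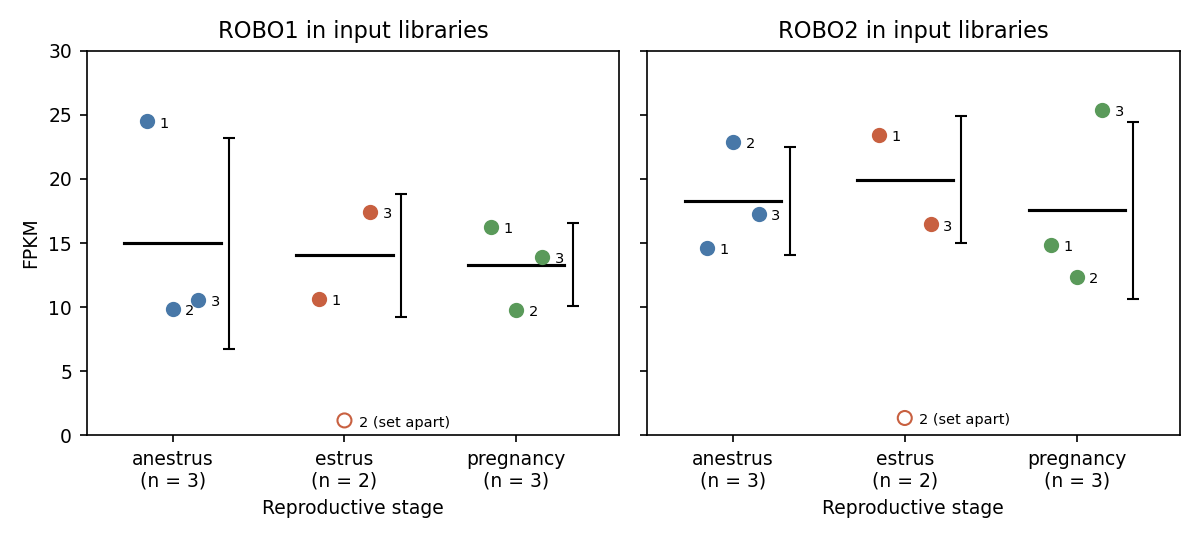
FPKM (vertical axis, from 0) of ROBO1 and ROBO2 in each input library by reproductive stage. Filled points are the 8 libraries compared, numbered by replicate, with the stage mean as a horizontal line and the SD as a bar beside it, and the open circle is YO-F2. The filled points of the 3 stages overlap for both genes, and YO-F2 lies below all of them, at 1.16 for ROBO1 and 1.35 for ROBO2.

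Neither receptor differed between the stages beyond the spread of the libraries. The comparison was made with limma on log2(FPKM + 0.1) over 130 genes (mean FPKM 0.1 or more over the 9 libraries), with all 3 stages in one fit. In this bulk tissue, fewer cells that express a gene and less of its RNA per cell cannot be told apart. A gene was called by the standard of the study, a log2 fold change of at least 1 in size with an unadjusted p under 0.05. By that standard, 0 of the 2 receptors were called in YO-FvsA, where 1.54% of the 130 genes were (0.769% higher and 0.769% lower in estrus). The count of receptors called was 0 also in YO-FvsP, where 2.31% of all genes were called, each lower in estrus. YO-PvsA likewise had 0 receptors called against 2.31% of all genes, each higher in pregnancy (with a pseudocount of 1, the only gene called was lower in pregnancy). After Benjamini-Hochberg adjustment over all genes, limma called 0 of the 130 genes in each comparison, while 12, 12 and 4 genes had an unadjusted p under 0.05.

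For ROBO1, the log2 fold change was -0.01 in YO-FvsA, with a 95% interval of -0.93 to 0.92 (limma, adjusted p = 0.998). It was 0.06 in YO-FvsP (interval -0.86 to 0.98, limma, adjusted p = 0.982) and -0.07 in YO-PvsA (interval -0.89 to 0.76, limma, adjusted p = 0.947). These intervals are wide. In YO-FvsA the interval runs from 0.525-fold to 1.89-fold on the scale of FPKM + 0.1, and a change within these bounds is not excluded.

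For ROBO2, the log2 fold change was 0.13 in YO-FvsA (interval -0.59 to 0.85, limma, adjusted p = 0.945) and 0.23 in YO-FvsP (interval -0.49 to 0.95, limma, adjusted p = 0.867). In YO-PvsA it was -0.10 (interval -0.75 to 0.54, limma, adjusted p = 0.921). The libraries of the compared stages overlapped for both receptors in all 3 comparisons, whereas the share of the 130 genes without overlap was 19.2% between estrus and anestrus, 26.9% between estrus and pregnancy and 9.23% between pregnancy and anestrus. The exact two-sided permutation p of the 6 comparisons was 0.6 to 1, in a design in which it cannot go below 0.1. The sign of each of these 6 fold changes turned when 1 library was left out, among them YO-A1, YO-F1 and YO-P2. The largest change in size in any fit without YO-F2 was 0.53, for ROBO2 in YO-FvsP without YO-P3.

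**Figure D2:**
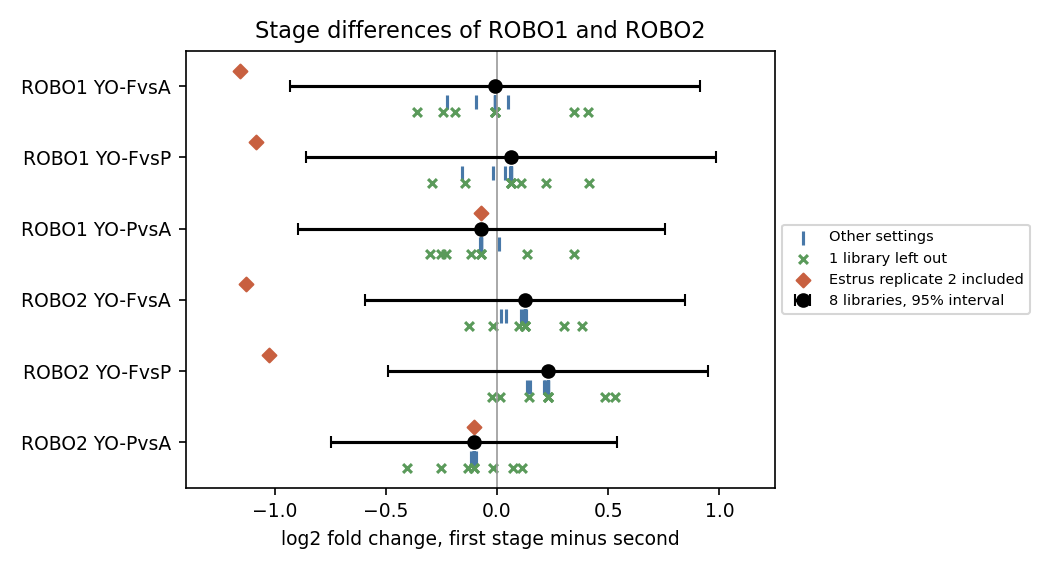
log2 fold change on the log2(FPKM + 0.1) scale (horizontal axis, first stage minus second) of ROBO1 and ROBO2 in the 3 stage comparisons. Black points and bars are the limma estimate over 8 libraries with its 95% interval, blue ticks other settings, green crosses fits with 1 library left out and orange diamonds the fit with YO-F2 included. Every interval spans 0, and in both comparisons with estrus YO-F2 moves the estimate below -1.

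The 2 receptors varied between libraries of one stage more than most genes. The pooled within-stage SD on the log2 scale, taken without YO-F2, was 0.561 for ROBO1 and 0.428 for ROBO2. The median was 0.257 over the 105 genes at a mean FPKM of 1 or more over the 9 libraries, YO-F2 included. Of these 105 genes, 16 had a larger SD than ROBO1 and 27 a larger one than ROBO2. Their order changed from library to library. The ratio of ROBO1 to ROBO2 FPKM, which compares levels per exon length, was 1.67 in YO-A1 and 0.432 in YO-A2, the extremes of the 8 libraries, both from anestrus. ROBO1 was the higher of the pair in 3 libraries (YO-A1, YO-F3 and YO-P1) and ROBO2 in 5. Across the 8 libraries, Pearson's r between their log2 values was -0.298 (exact permutation p = 0.473) and Spearman's rho was -0.0952 (exact permutation p = 0.840). Without YO-A1 and YO-F3, the libraries farthest from the median of ROBO1, r was 0.00855 (exact permutation p = 0.986) and rho 0.371 (exact permutation p = 0.497), so the sign of both turned. No sequencing batch is named in the sources used here, and a stage holds too few libraries for a value of its own.

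In YO-F2 both receptors were far below all other libraries. ROBO1 had an FPKM of 1.16 there and at least 9.80 elsewhere, so that the lowest other library was 8.44-fold higher. ROBO2 had 1.35 in YO-F2 and at least 12.4 elsewhere, 9.15-fold higher. On the log2(FPKM + 0.1) scale, YO-F2 lay 3.28 units below the median of the others for ROBO1 and 3.55 units below it for ROBO2. Their ratio, however, was 0.859 in YO-F2, within the range of the other libraries.

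YO-F2 stood apart in many genes, and the receptors have to be read against that. The 130 genes were selected by mean FPKM over all 9 libraries, so a gene high only in YO-F2 could enter through that library. Such genes count among those higher in YO-F2 and in the total behind each share. Of the 130 genes, 30% were lower in YO-F2 than in every other library and 24.6% were higher than in every other library. In 14.6% (19 genes), YO-F2 was more than 1 log2 unit below the lowest. Both receptors were among these 19 genes. For each of the other 8 libraries, a like count was 0 or 1. There YO-F2 was among the libraries compared against, so a gene lowest in YO-F2 could not be counted. These low counts are therefore partly set by the comparison. Ordered by the difference from the median of the others, ROBO2 was the fourth lowest and ROBO1 the sixth lowest of the 130 genes, and the median difference over all 130 was -0.08. The nearest genes on either side with a symbol and a mean FPKM of 1 or more, chosen after their values were seen, stayed within the range of the other libraries. GBE1, the glycogen branching enzyme gene before ROBO1, had 10.8 in YO-F2 and 9.68 to 13.1 elsewhere, and RBM11, an RNA-binding protein gene after ROBO2, had 2.55 and 1.88 to 5.41. Other genes nearby did leave their range. LIPI, a weakly expressed lipase gene between ROBO2 and RBM11, had 0.975 in YO-F2 and 0 to 0.285 elsewhere. HSPA13 and NRIP1, further along past RBM11, were below theirs, at 2.52 against 3.71 to 4.06 and at 1.12 against 2.10 to 3.28 on the log2(FPKM + 0.1) scale. Of 53 marker genes listed for granulosa, theca, luteal, endothelial, stromal, smooth muscle, immune, oocyte and ciliated cells, 0 are among the 173 genes, so neither the ovarian label nor the cell makeup of YO-F2 was tested here.

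**Figure D3:**
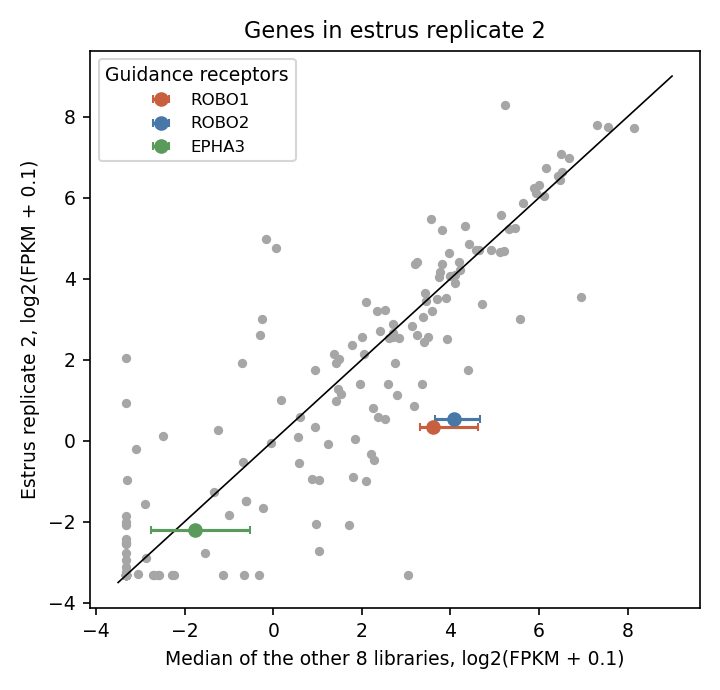
Level in YO-F2 (vertical axis) against the median of the other 8 libraries (horizontal axis), both as log2(FPKM + 0.1), for the 173 genes. Grey points are single genes, coloured points are ROBO1, ROBO2 and EPHA3 with bars from the lowest to the highest other library, and the line marks equal levels. ROBO1 and ROBO2 lie side by side 3.28 and 3.55 units below the line's level at their medians, and EPHA3 lies near the line.

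The estimated differences between estrus and the other stages therefore depend in size on whether YO-F2 is counted. Neither receptor was called with it or without it. With YO-F2 included, the mean FPKM in estrus was 9.74 for ROBO1 and 13.7 for ROBO2. The log2 fold change in YO-FvsA became -1.15 for ROBO1 and -1.13 for ROBO2, and in YO-FvsP -1.09 and -1.02. Each of these sizes rests on YO-F2 alone and is given as a description.

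Other genes of the pathway could hardly be followed. Of 93 genes listed for the SLIT and ROBO family, its binding partners, its intracellular effectors and the other guidance families, 3 are in the table, ROBO1, ROBO2 and EPHA3. The same 3 genes are the ones that the table assigns to the KEGG pathway axon guidance. EPHA3 encodes an ephrin receptor, which like the ROBO proteins can pass on repulsive cues, and lies on the same chromosome (39875237 to 40333962). It was expressed far more weakly, at an FPKM of 0.0472, 0.197 and 0.175 in YO-A1 to YO-A3, 0.361 and 0.594 in YO-F1 and YO-F3, 0.193, 0.320 and 0.156 in YO-P1 to YO-P3, and 0.119 in YO-F2. Both estrus libraries were above all anestrus and all pregnancy libraries, while YO-F2 was not. Such a lack of overlap was common among the 130 genes, at 19.2% for estrus and anestrus and 26.9% for estrus and pregnancy. EPHA3 met the standard in YO-FvsA, as 1.54% of the 130 genes did, with a log2 fold change of 1.30 (standard error 0.57, unadjusted p = 0.0481 and adjusted p = 0.521 from limma). It lost the call in 6 of 9 other settings and in each of the 8 fits with 1 library left out, where the log2 fold change was 0.99 to 1.60. In the settings that lost it, the log2 fold change was 0.37 with a pseudocount of 1, 0.85 with YO-F2, 1.24 with median-ratio scaling, 1.30 in a fit of the 2 stages alone, 1.501 with the replicate number as a block and 1.87 with a pseudocount of 0.01. In YO-FvsP it was 0.84 (adjusted p = 0.676 from limma) and in YO-PvsA 0.46 (adjusted p = 0.910 from limma), and EPHA3 was not called.

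The genes whose levels followed the receptors most closely over the 8 libraries were not the same for the 2. Likeness was measured as Pearson's r of log2 values over the 80 genes with a symbol and a mean FPKM of 1 or more, as a description of a few points. For ROBO1, the closest were DDOST, a subunit of the enzyme that attaches sugar chains to proteins (r = 0.85), the cell adhesion gene CXADR (r = 0.81) and the zinc finger gene ZNF654 (r = 0.78). For ROBO2, they were C21orf91 (r = 0.84), RETREG2 (r = 0.80) and ADAMTS1, a secreted protease gene of the ovulating follicle (r = 0.75). YO-F2 was not used for this order. There, DDOST, CXADR and RETREG2 lay within the range of the other libraries. C21orf91 (0.434 against 2.73 to 4.08), ADAMTS1 (11.6 against 79.4 to 259) and ZNF654 (0.840 against 1.63 to 2.77) lay below it.

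N6-methyladenosine (m6A) is a methyl mark on adenosines inside mRNA that is often found near stop codons and in 3′ UTRs. For ROBO1, 0 peaks were listed in any stage. The lists run along the plus strand of chromosome 1 first, and the parts used here go past ROBO1 in all 3, to 22449705 in anestrus and further in estrus and pregnancy. The last peak before ROBO1 was in VGLL3 in each list and ended at 1011729 or before, and the next started at 14212338 or after. Of the 15 plus-strand genes of the table in the stretch that all lists cover, 9 had a mean FPKM of at least 1 in each stage, ROBO1 among them. Peaks were listed for 4 of these 9 genes in anestrus, 4 in estrus and 2 in pregnancy, counted by the gene named for each peak. In pregnancy, a peak of the plus-strand part starts at 14212338, the first base of the plus-strand gene RBM11. It is listed under LIPI, a minus-strand gene, and so was not counted for RBM11. A gene without a listed peak is one in which the caller found none, not one shown to be free of the mark.

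ROBO2 had 1 peak, in pregnancy. It spans 11912863 to 11914856 on the minus strand and was annotated as 3′ UTR of ENSBGRT00000000026, a transcript from 11912833 to 12117993, so that it starts 30 bases inside the transcript's end. The peak has 2 blocks, of 141 bases (11912863 to 11913003) and 99 bases (11914758 to 11914856), 1754 bases apart. The fold enrichment of immunoprecipitated over input RNA was 2.63, and the list gives -101 for log10 p and -99.7 for the log10 of the false discovery rate. Its fold enrichment thus ranked low in the pregnancy list, while its listed p was among the smaller ones. Of the 282 pregnancy peaks, 226 had a higher fold enrichment and 50 a smaller p, and the medians were 4.42 for fold enrichment and -15.6 for log10 p. Among the 58 pregnancy peaks in a 3′ UTR, 49 had a higher fold enrichment and 21 a smaller p. The anestrus and estrus lists used here hold plus-strand peaks only and do not reach ROBO2, so the peak could not be compared between stages. Replicates cannot be separated within a list.

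**Figure D4:**
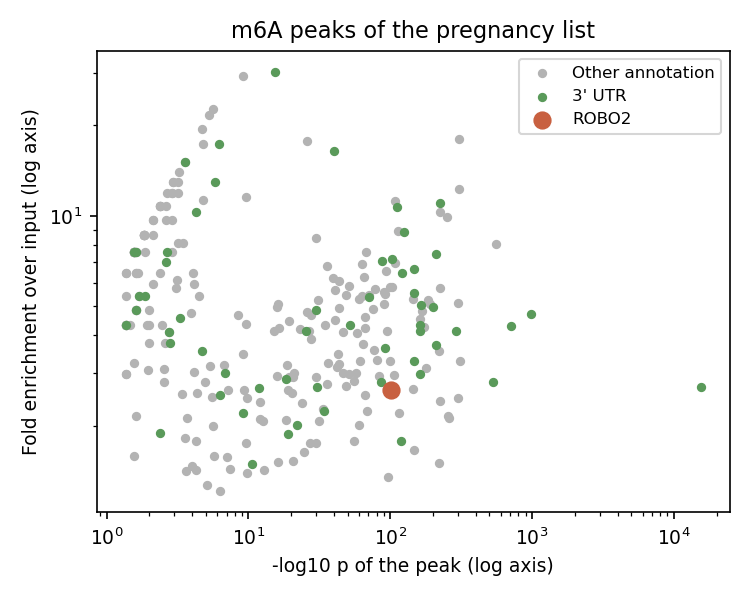
Fold enrichment over input (vertical axis) against -log10 p (horizontal axis), both on log axes, for the m6A peaks of the pregnancy list. Green points are peaks in a 3′ UTR, grey points other peaks and the orange point the ROBO2 peak. ROBO2 lies low on the vertical axis, at 2.63, and to the right, with only 50 of 282 peaks at a smaller p.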

How the data were processed

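Ovarian RNA of 9 input libraries was analysed, 3 per stage. The authors filtered reads with fastp, aligned them with HISAT2 (2.0.4 in the submitters' processing notes) to the yak genome and computed gene levels with StringTie. The deposited values are FPKM, 1 for each gene in each library. FPKM holds no counts, so the depth behind a value is unknown. The authors deposited 1 peak list per stage, which gives fold enrichment as a ratio. The deposited score values beside it are log10 p and log10 FDR, by their column names. Peaks were annotated with ChIPseeker (1.18.0 in the same notes), and the peak caller is not given in the sources used here. The 3 deposited tables of differences between stages hold the log2 fold change, p-value and FDR of the authors' own comparison and were not used. The last, incomplete line of each file used was left out.

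Expression was tested with limma 3.58.1 (R 4.3.3, moderation with a trend) on log2(FPKM + 0.1), since the test used in the study needs counts. Other values came from Python 3.11.15 with numpy 2.4.6, pandas 2.3.3 and scipy 1.17.1, and figures from matplotlib 3.10.9. Members and lists were chosen with earlier results of these data known. The genes named were the members, guidance genes called in a comparison or among the 3 highest of their list, and the 3 genes most like each member. Genes next to a member or its peaks (GBE1, RBM11, LIPI, HSPA13, NRIP1, VGLL3 and ENSBGRG00000000015) fall outside that rule and were chosen after their values were seen. The labels do not say which libraries came from separate animals, so p-values measure only the spread between these libraries. The fit was first tested on simulated data with normal noise and a change of 3 log2 units in 26 of 130 genes. Of the changed genes 96.3% to 97.4% were called, and of the unchanged genes 1.88% to 2.27%. Changes as small as those estimated for the receptors were not simulated. Alternatives covered the pseudocount, the minimum, scaling, moderation, the set of libraries and the replicate number as a block. Those of the ratio of YO-F2 to the other libraries, of the stage means and of the relation between the receptors were chosen after seeing the data.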

Additional observations from a re-analysis of the deposited data

How the results depend on the processing

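ROBO1 and ROBO2 were not called under any alternative (108 values, of 2 genes in 3 comparisons, some of them equal to the main value), and the smallest limma p was 0.0791, for ROBO2 in YO-FvsP without YO-P3. Their signs were not stable. With YO-F2 included, the log2 fold change turned to -1.13 for ROBO2 in YO-FvsA, and to -1.09 for ROBO1 and -1.02 for ROBO2 in YO-FvsP. For ROBO1, quantile normalization gave 0.049 in YO-FvsA and 0.011 in YO-PvsA, and median-ratio scaling -0.0195 in YO-FvsP. With 1 library left out, ROBO1 ranged from -0.36 to 0.41 in YO-FvsA, -0.29 to 0.41 in YO-FvsP and -0.30 to 0.35 in YO-PvsA, and ROBO2 from -0.13 to 0.38, -0.0234 to 0.53 and -0.40 to 0.11. An estrus library left alone is assumed to vary like the other stages. The relation of ROBO1 and ROBO2 turned to r = 0.00855 without YO-A1 and YO-F3.

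Of all 130 genes, 2 were called in YO-FvsA (1 higher and 1 lower), 3 in YO-FvsP and 3 in YO-PvsA. A pseudocount of 1 gave 1, 1 and 1, each lower in the first stage, which turned the direction in YO-PvsA, and one of 0.01 gave 0 higher and 2 lower in YO-FvsA. YO-FvsA had 1 called gene with a minimum mean FPKM of 1, with median-ratio scaling (0 higher and 1 lower) and in a fit of the 2 stages alone, and quantile normalization gave 2 higher and 1 lower. With YO-F2, YO-FvsA and YO-FvsP had 5 each. With 1 library left out, the counts were 1 to 9, 3 to 9 and 1 to 4, and the 9 in both comparisons with estrus came without YO-F3. Without YO-A3 the count was 4 in YO-FvsA and 1 in YO-PvsA, without YO-P2 it was 5 in YO-FvsP, and without any 1 pregnancy library it was 1 in YO-FvsA. The cause was not tested.

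Replicate numbers are shared between stages. Of 7 pairs with the same number, 1 had deviations from the stage means that correlated above 0.1 (YO-A1 with YO-P1, r = 0.389). A pair with different numbers, YO-A2 with YO-P3, reached r = 0.483. Without YO-F2, the deviations of YO-F1 and YO-F3 are mirror images, so r with YO-A1 was -0.170 and 0.170. Whether the numbers pair the libraries therefore cannot be decided from these correlations. With the replicate number as a block, YO-FvsA had 1 called gene, and ROBO1 in YO-FvsP turned to -0.16.

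The low levels in YO-F2 held under the alternatives tried. Relative to the median of the other libraries, ROBO1 was at -2.61 with a pseudocount of 1 and at -2.60 after quantile normalization, and ROBO2 at -2.93 and -2.92, in place of -3.28 and -3.55. The ROBO2 peak also met an FDR of 0.05 and a fold enrichment of at least 2. Its overlap between stages could not be computed, since only the pregnancy list used here reaches the gene.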
